A study of Macaca fascicularis with 6 samples.

Results

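The zinc transporters described here are 10 genes of the SLC39A and SLC30A families in oocytes of the cynomolgus monkey (Macaca fascicularis). They were taken by name from the deposited gene count table, which listed 28164 genes. They are 5 SLC39A genes (SLC39A1, SLC39A6, SLC39A7, SLC39A10 and SLC39A14) and 5 SLC30A genes (SLC30A1, SLC30A5, SLC30A6, SLC30A7 and SLC30A9). All 10 were in the table, and all 10 passed the filter on low counts. The oocytes formed 3 groups of 2 libraries. IVM MII oocytes were matured to metaphase II in culture, IVO MII oocytes were matured to metaphase II in the animal, and GV oocytes were immature, with an intact germinal vesicle. Every library was labelled wild type, untreated and stripped of surrounding cells. Not given in the sources used here are the culture medium, the animals' age and hormone treatment, and how many oocytes and animals lay behind a library. Levels of a gene between libraries are given as CPM, read counts scaled to library size with TMM factors, and levels of different genes are compared only as TPM, which are also scaled to exon length. Both are shares of the poly(A)-primed RNA of a library, so fewer oocytes and less RNA per oocyte cannot be told apart, nor can less transcript and a shorter poly(A) tail.

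SLC39A (ZIP) proteins move zinc into the cytosol, from outside the cell or from organelles, and SLC30A (ZnT) proteins move it out of the cytosol, across the plasma membrane or into organelles. In mouse oocytes the zinc content rises during meiotic maturation, zinc is needed for the arrest at metaphase II, and zinc is released from the egg at activation. SLC39A6 and SLC39A10 are the zinc importers known from maturing mouse oocytes, and their proteins can form a complex with each other.

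Library totals ran from 27707021 to 35515139 counts. Oocyte markers had the highest sum of the 4 marker lists in every library, with 18979 to 24273 CPM in IVM MII, 19375 to 20541 CPM in IVO MII and 36563 to 40148 CPM in GV over the 9 of 10 listed genes in the table. The 14 cumulus and granulosa markers summed to 86.2 to 88.2 CPM in IVM MII, 37.1 to 53.4 CPM in IVO MII and 34.7 to 40.3 CPM in GV, and AMHR2, FOXL2, INHA, PTX3 and STAR had no count in any group. The 12 theca, stroma and endothelium markers summed to 155 to 163 CPM in IVM MII, 90.9 to 95.6 CPM in IVO MII and 331 to 389.8 CPM in GV, and CYP17A1, LUM and KDR had no count. VWF made up the largest part of this sum, with means of 103, 43.9 and 312 CPM in IVM MII, IVO MII and GV. Other markers did not follow it: CDH5 had 31.3, 24.7 and 32.8 CPM, and PECAM1 19.4, 15.6 and 9.33 CPM. The 7 of 8 blood markers in the table summed to 4.89 to 5.44 CPM, 4.14 to 7.07 CPM and 13.3 to 13.5 CPM in the same groups, with CD3E and HBB at no count. Tests were edgeR quasi-likelihood tests over all 15815 genes that passed the filter, with p-values adjusted by Benjamini and Hochberg and called under 0.05; values after ± are the SD over n = 2 libraries for a level and the standard error for a log2 fold change, and intervals are 95% intervals before adjustment. The p-values measure the spread between these libraries only.

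Part of the set had higher levels, as shares of the poly(A)-primed RNA, in both kinds of MII oocyte than in GV oocytes. SLC30A5 was the only member called between the routes of maturation. In IVM MII against GV, SLC39A14, SLC30A5, SLC30A7 and SLC30A9 rose, 4 of the 10 members, and 0 fell; of all genes tested 25.6% rose and 24.7% fell, 50.3% in all. In IVO MII against GV, SLC39A10, SLC39A14 and SLC30A7 rose, 3 of 10, and 0 fell, against 28.1% and 30.5% of all genes, 58.5% in all. Between IVM MII and IVO MII, 1 member was higher in IVM MII and 0 were lower, against 14.3% and 10.3% of all genes, 24.6% in all. No member was lower in any of these comparisons at an unadjusted p under 0.05 by edgeR (0 of 10 in each). The share of all genes at that threshold was not worked out. DESeq2 called 0 members lower, while a strict filter on low values called 1 lower in IVO MII against GV, SLC30A5 (-0.76). The median log2 fold change of the 10 members was 0.83 in IVM MII against GV, 0.45 in IVO MII against GV and -0.012 in IVM MII against IVO MII, beside medians of 0.060, -0.067 and 0.017 over all genes tested. Both comparisons with GV use the same GV libraries, so their values are given side by side and are not independent of each other.

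**Figure D1:**
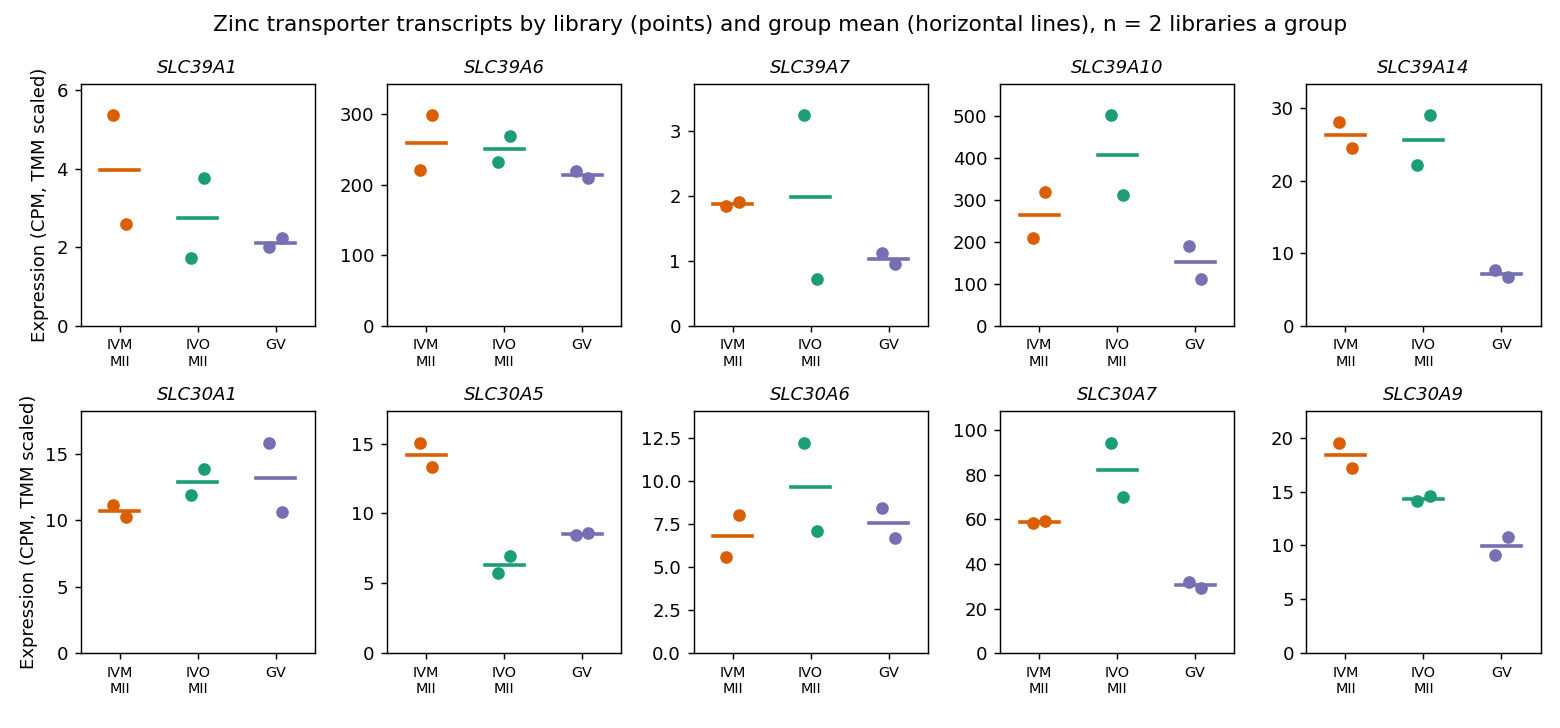
Expression of the 10 zinc transporters in CPM, with a point for each library and a horizontal line for the mean of n = 2 libraries; each panel has its own axis, starting at 0. The GV points of SLC39A14 (6.66 and 7.73 CPM) lie far under all 4 MII points, and the IVM MII points of SLC30A5 (13.4 and 15.1 CPM) lie above those of both other groups.

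The libraries of IVM MII and GV did not overlap for 8 of the 10 members, all of them higher in IVM MII, beside 77.8% of all genes (40.4% higher and 37.4% lower). Those of IVO MII and GV did not overlap for 6 members, 5 higher and 1, SLC30A5, lower in IVO MII, beside 80.2% of all genes (38.2% higher and 42.1% lower). Those of IVM MII and IVO MII did not overlap for 4 members, 2 higher (SLC30A5 and SLC30A9) and 2 lower in IVM MII (SLC30A1 and SLC30A7), beside 63.0% of all genes (33.1% higher and 30.0% lower). The members' total shares were near the background in IVM MII against GV and under it in the other comparisons.

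SLC39A6 (macFas5 chromosome 18, 45883487 to 45904735, plus strand), an importer at the plasma membrane, had the highest mean per exon length in every group. In IVO MII its libraries overlapped those of SLC39A10, so SLC39A6 was not set apart there. SLC39A6 stood at 221 and 299 CPM in IVM MII, 233 and 269.5 CPM in IVO MII, and 220.3 and 209 CPM in GV. All 4 MII libraries were above both GV libraries, by a small margin for IVM MII replicate 1, and no comparison passed the test. Its log2 fold change was 0.28 ± 0.23 in IVM MII against GV (interval -0.23 to 0.78) and 0.23 ± 0.23 in IVO MII against GV (interval -0.28 to 0.73). Scaling by library totals alone gave 0.55 with an adjusted p of 0.0474 in IVM MII against GV, a scaling under which the median of all genes moved to 0.35; its adjusted p ran from 0.0474 to 0.994 over the 14 alternatives. Between the MII groups the log2 fold change was 0.051 ± 0.23, with an interval of -0.45 to 0.55.

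SLC39A10 (chromosome 12, 84761274 to 84935368, plus strand), the partner of SLC39A6 at the plasma membrane, had 208 and 319.6 CPM in IVM MII, 502 and 311 CPM in IVO MII, and 191 and 111 CPM in GV. All 4 MII libraries were above both GV libraries, while the MII groups overlapped. In IVO MII it rose 2.69-fold over GV, by 1.43 ± 0.33 on the log2 scale (edgeR adjusted p = 0.00296), and the call held under all 14 alternatives (log2 fold changes of 1.06 to 1.87). In IVM MII it was 0.80 ± 0.33 on the log2 scale over GV with an adjusted p of 0.0576, just outside the threshold, and 8 of 14 alternatives called it, with adjusted p from 0.0155 to 0.344. It was called there without GV replicate 1 (1.25), IVM MII replicate 1 (1.12), IVO MII replicate 1 (0.82) or IVO MII replicate 2 (0.83). IVM MII stood at -0.62 ± 0.32 against IVO MII (interval -1.33 to 0.086, adjusted p = 0.182), so the larger value in IVO MII was not shown to differ from that in IVM MII. The replicates of GV differed more for SLC39A10 than for any other member.

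SLC39A14 (chromosome 8, 22519853 to 22578605, plus strand), which takes up zinc and also iron and manganese, had the largest fold changes of the 10 members in both comparisons with GV. It was at 28.2 and 24.6 CPM in IVM MII, 22.1 and 29.0 CPM in IVO MII, and 7.73 and 6.66 CPM in GV. The MII groups, at means of 26.4 ± 2.54 CPM in IVM MII and 25.6 ± 4.88 CPM in IVO MII, overlapped each other and lay far above GV, at 7.19 ± 0.754 CPM. It rose 3.66-fold in IVM MII over GV (log2 fold change 1.87 ± 0.25, adjusted p = 1.42e-04) and 3.56-fold in IVO MII over GV (1.83 ± 0.25, adjusted p = 1.01e-04). Both calls held under all 14 alternatives, with adjusted p of at most 0.00194 and 0.00147. Between the MII groups the log2 fold change was 0.043 ± 0.24, with an interval of -0.49 to 0.57.

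SLC39A1 and SLC39A7 were the members with the fewest counts. SLC39A1 (chromosome 1, 97901387 to 97907103, plus strand), a widely expressed importer of the plasma membrane, had 5.37 and 2.58 CPM in IVM MII, 1.74 and 3.77 CPM in IVO MII, and 2.01 and 2.23 CPM in GV. The MII libraries were spread so widely that the difference from GV, 0.91 ± 0.46 in IVM MII and 0.38 ± 0.46 in IVO MII on the log2 scale, did not pass (adjusted p = 0.116 and 0.499). Without IVM MII replicate 2 alone the value in IVM MII against GV was 1.35 with an adjusted p of 0.0494, the lowest of its alternatives, which reached 0.638. SLC39A7 (chromosome 4, 137584187 to 137587779, minus strand), which releases zinc from the endoplasmic reticulum into the cytosol, rested on 80 and 67 counts in IVM MII, 84 and 21 counts in IVO MII, and 33 and 28 counts in GV. Its levels were 1.85 and 1.90 CPM in IVM MII, 3.25 and 0.713 CPM in IVO MII, and 1.12 and 0.946 CPM in GV. The IVO MII libraries lay on either side of both other groups. Its log2 fold change was 0.86 ± 0.59 in IVM MII and 0.92 ± 0.59 in IVO MII against GV, without a call. Without IVO MII replicate 2 the IVO MII value was 1.66 with an adjusted p of 0.00605, and without IVO MII replicate 1 it was -0.52, so a single library set its size and its sign (adjusted p over its alternatives 0.00605 to 0.473).

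SLC30A1 (chromosome 1, 70149531 to 70153131, minus strand), the zinc exporter of the plasma membrane, showed no call in any comparison. It had 11.2 and 10.2 CPM in IVM MII, 11.9 and 13.9 CPM in IVO MII, and 15.9 and 10.6 CPM in GV. The GV libraries spanned nearly all MII values. Its log2 fold change was -0.30 ± 0.27 in IVM MII against GV (interval -0.90 to 0.29), -0.035 ± 0.27 in IVO MII against GV (interval -0.63 to 0.56) and -0.27 ± 0.27 in IVM MII against IVO MII (interval -0.86 to 0.32).

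**Figure D2:**
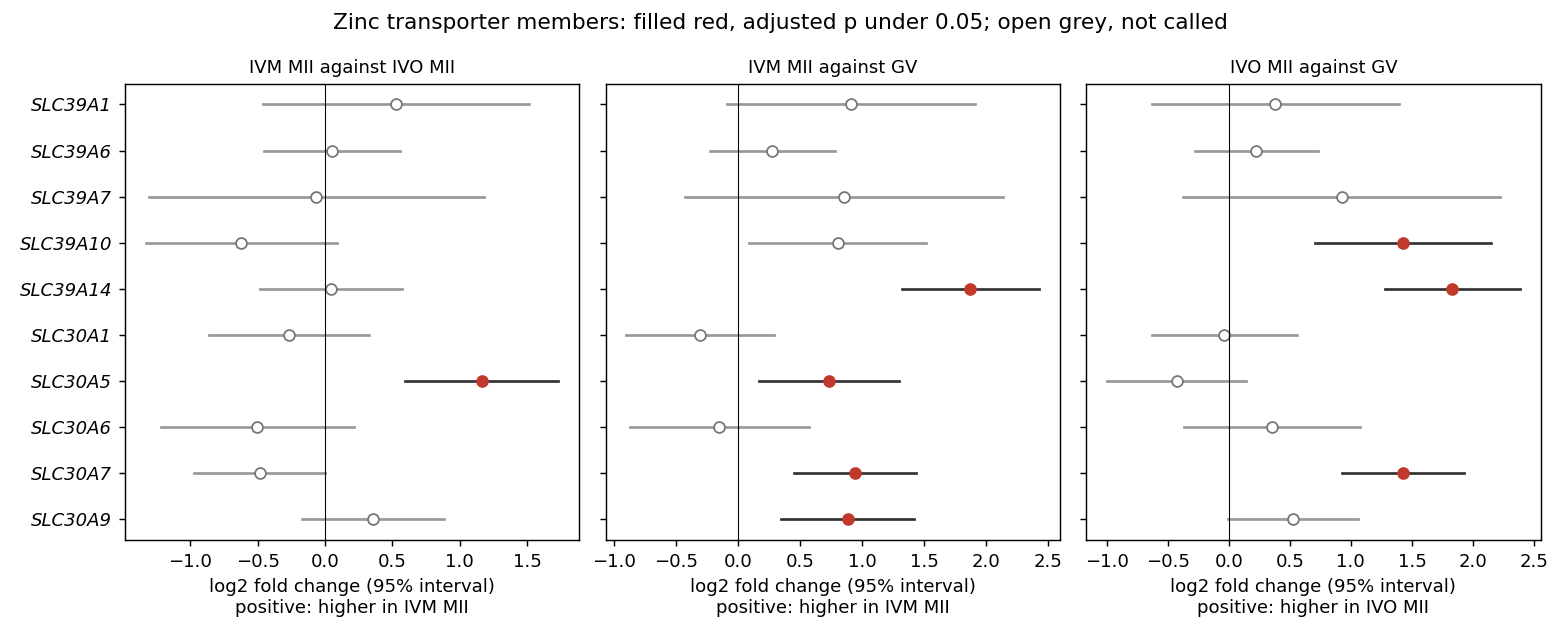
Log2 fold changes of the 10 zinc transporters in the 3 comparisons, with 95% intervals before adjustment; filled red points passed the edgeR test at an adjusted p under 0.05 and open grey points did not. SLC30A5 is the filled point in IVM MII against IVO MII (1.16), and SLC39A14 has the largest values against GV (1.87 and 1.83).

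SLC30A5, SLC30A6 and SLC30A7 load zinc into the early secretory pathway, SLC30A5 and SLC30A6 as a pair of unlike subunits and SLC30A7 with itself. SLC30A5 (chromosome 6, 68904949 to 68943025, plus strand) had 651 and 470 counts in IVM MII, 148 and 205 counts in IVO MII, and 249 and 254 counts in GV. On the CPM scale these were 15.1 and 13.4 in IVM MII, 5.72 and 6.96 in IVO MII, and 8.47 and 8.59 in GV. The means were 14.2 ± 1.21 CPM in IVM MII, 6.34 ± 0.879 CPM in IVO MII and 8.53 ± 0.0788 CPM in GV, and the 3 groups did not overlap. It was 2.24-fold higher in IVM MII than in IVO MII, by 1.16 ± 0.26 on the log2 scale (interval 0.59 to 1.73, edgeR adjusted p = 0.00775). The call held under all 14 alternatives, with log2 fold changes of 1.03 to 1.38 and adjusted p of 0.00213 to 0.0422. An unnamed gene on the opposite strand, LOC107130009, shares 290 bases of its exons and had 0 counts in every library. The cumulus and granulosa marker sum was also higher in IVM MII than in IVO MII (86.2 to 88.2 against 37.1 to 53.4 CPM). Of the 6 tested markers, 3 were called higher in IVM MII and 0 lower, beside 14.3% and 10.3% of all genes. Their median log2 fold change was 0.76. GREM1 had means of 29.0 against 4.01 CPM, TNFAIP6 27.9 against 13.6, RUNX2 7.58 against 1.91 and FSHR 3.89 against 2.76. HAS2 was lower in IVM MII, with 18.7 ± 2.27 against 22.1 ± 13.4 CPM. Also lower there were CYP19A1, GJA1 and INHBA, at means of at most 0.379 CPM in these groups. Of the 14 listed, 8 had no count in IVM MII and 6 had none in IVO MII. The part of such cells in the SLC30A5 difference was not tested.

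Against GV the sign of the SLC30A5 value differed between the routes. In IVM MII it rose by 0.74 ± 0.26 on the log2 scale (adjusted p = 0.0320). That call ended without GV replicate 1 (0.73) or 2 (0.75), without IVM MII replicate 1 (0.68) or 2 (0.84), with a gene length offset (0.54) and with a strict filter on low values (0.46), over adjusted p of 0.0109 to 0.147. In IVO MII it stood at -0.43 ± 0.26, which did not pass (adjusted p = 0.179) other than under the strict filter (-0.76, adjusted p = 0.0238, in a range of 0.0238 to 0.502). The difference between the routes is what the test between the MII groups, given above, addresses.

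SLC30A6 (chromosome 13, 78495303 to 78550729, minus strand), the partner of SLC30A5, was called in no comparison. It had 5.58 and 8.04 CPM in IVM MII, 12.2 and 7.10 CPM in IVO MII, and 8.41 and 6.66 CPM in GV, and all groups overlapped. Between IVM MII and IVO MII its value was -0.50 ± 0.33 on the log2 scale (interval -1.22 to 0.21), an interval that lies wholly under that of SLC30A5 (0.59 to 1.73). Per exon length, the ratio of SLC30A5 to SLC30A6 was 1.42 and 0.871 in the IVM MII libraries, 0.246 and 0.514 in the IVO MII libraries, and 0.529 and 0.676 in the GV libraries. Both IVM MII ratios were above all 4 others; this ratio was not tested.

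**Figure D3:**
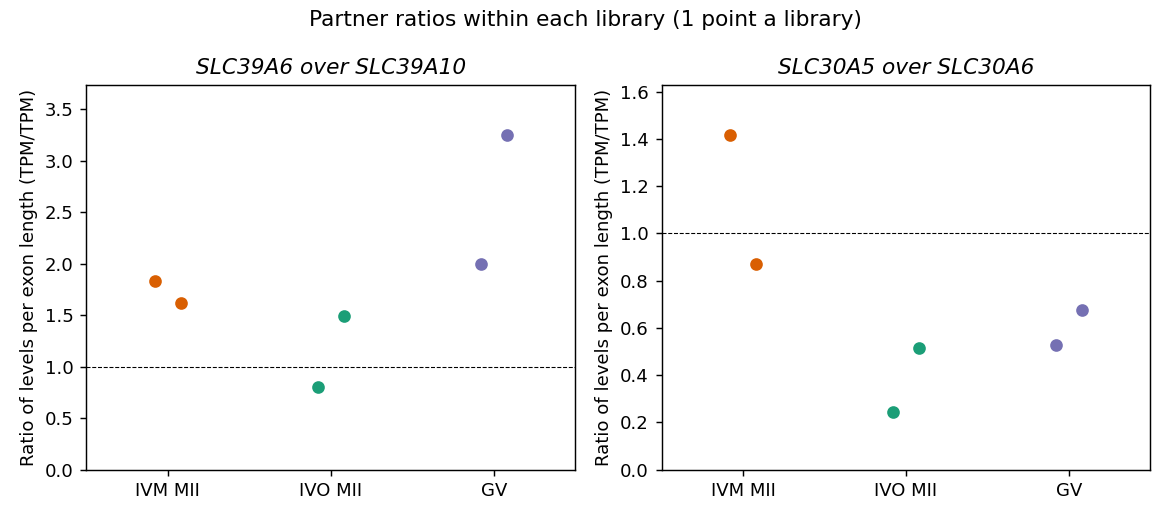
Ratios of levels per exon length (TPM) within each library for the partners SLC39A6 over SLC39A10 and SLC30A5 over SLC30A6, with a point for each library and a dashed line at a ratio of 1. The IVM MII points of SLC30A5 over SLC30A6 (0.871 and 1.42) lie above the IVO MII and GV points, and for SLC39A6 over SLC39A10 the GV points are the highest (1.99 and 3.25).

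SLC30A7 (chromosome 1, 125824525 to 125909642, minus strand) had 58.4 and 59.1 CPM in IVM MII, 94.4 and 69.9 CPM in IVO MII, and 31.8 and 29.3 CPM in GV. All 4 MII libraries were above both GV libraries, and both IVO MII libraries were above both IVM MII libraries. It rose 1.92-fold in IVM MII over GV (log2 fold change 0.94 ± 0.23, adjusted p = 0.00473) and 2.69-fold in IVO MII over GV (1.43 ± 0.23, adjusted p = 2.56e-04), and both calls held under all 14 alternatives. Between the MII groups the log2 fold change was -0.48 ± 0.22, with an interval of -0.97 to 0.0028 and an adjusted p of 0.133. Of the 3 transporters of the secretory pathway, SLC30A7 was thus called against GV in both routes, SLC30A5 in IVM MII and SLC30A6 in neither; only for SLC30A5 was a difference between the routes called.

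SLC30A9 (chromosome 5, 41742727 to 41850545, plus strand) exports zinc from mitochondria. It had 19.5 and 17.2 CPM in IVM MII, 14.1 and 14.6 CPM in IVO MII, and 9.09 and 10.8 CPM in GV, in 3 ranges that did not overlap. In IVM MII it rose 1.85-fold over GV, by 0.88 ± 0.24 on the log2 scale (adjusted p = 0.0104). The call ended without GV replicate 1 (0.77, adjusted p = 0.0907) and with the strict filter (0.61), over adjusted p of 0.00250 to 0.0907. In IVO MII against GV the value was 0.53 ± 0.24 with an adjusted p of 0.0829, and a gene length offset gave 0.87 with an adjusted p of 0.00771, in a range of 0.00771 to 0.495. IVM MII against IVO MII gave 0.36 ± 0.24 (interval -0.17 to 0.89), so the routes were not shown to differ for SLC30A9.

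Ordered by level per exon length, the importers SLC39A6 and SLC39A10 stood at the top of the set in every group. In IVM MII, SLC39A6 was at 143 TPM (137 to 149.8 over the libraries), above 92.7% of the tested genes, and SLC39A10 at 83.6 TPM. Below them came SLC30A9 at 18.3 and SLC30A7 at 16.9 TPM, SLC30A1 at 12.8 and SLC39A14 at 11.5 TPM, SLC30A5 at 6.65 and SLC30A6 at 5.93 TPM, and SLC39A1 at 3.40 and SLC39A7 at 1.79 TPM, where the members of each pair overlapped and the pairs did not overlap their neighbours in this order. In IVO MII, SLC39A6 at 126 and SLC39A10 at 117 TPM overlapped, then came SLC30A7 at 21.0 TPM, SLC30A1 at 13.8 and SLC30A9 at 12.7 TPM, which overlapped, and SLC39A14 at 9.95 and SLC30A6 at 7.58 TPM, which overlapped. SLC30A5 at 2.65, SLC39A1 at 2.06 and SLC39A7 at 1.65 TPM closed the order in IVO MII, each overlapping the next. In GV, SLC39A6 was at 83.5, SLC39A10 at 34.2 and SLC30A1 at 11.01 TPM, and SLC30A9 at 6.83 and SLC30A7 at 6.11 TPM were the only neighbours that overlapped. SLC30A6 at 4.65, SLC30A5 at 2.76, SLC39A14 at 2.17, SLC39A1 at 1.21 and SLC39A7 at 0.69 TPM followed in GV.

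**Figure D4:**
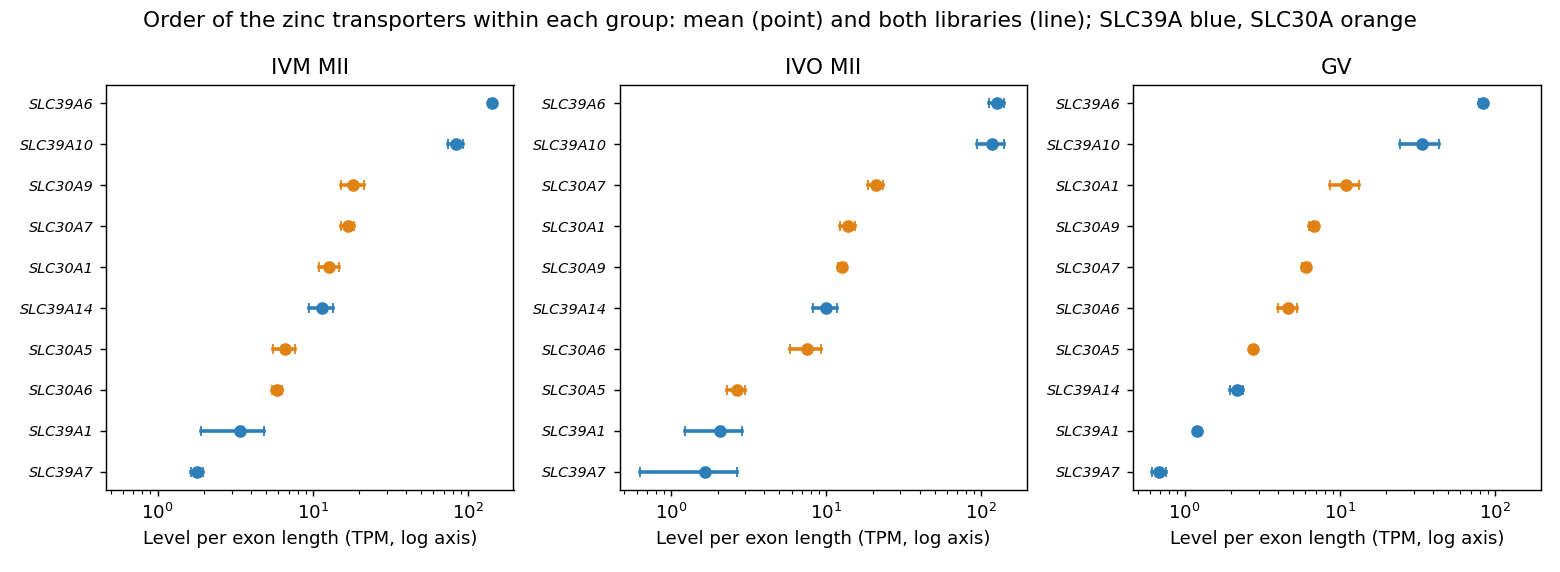
Order of the zinc transporters within each group by level per exon length (TPM, log axis), with a point for the mean and a line between the 2 libraries, SLC39A genes in blue and SLC30A genes in orange. SLC39A6 and SLC39A10 lead in each group. By its mean, SLC39A14 is in place 6 in IVM MII (11.5 TPM) and in IVO MII (9.95 TPM), and in place 8 in GV (2.17 TPM).

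The place of SLC39A14 in this order was the sixth in both MII groups and the eighth in GV. SLC39A6 and SLC39A10 together made up 91.2% and 94.9% of the summed TPM of the 5 SLC39A members in the IVM MII libraries, 95.4% and 93.9% in IVO MII, and 96.8% and 96.5% in GV. The ratio of SLC39A6 to SLC39A10 was 1.84 and 1.62 in IVM MII, 0.801 and 1.496 in IVO MII, and 1.99 and 3.25 in GV, so both GV libraries were above all 4 MII libraries. SLC30A7 made up 27.3% and 28.5% of the summed TPM of the 5 SLC30A members in IVM MII, 39.4% and 33.2% in IVO MII, and 18.9% and 20.2% in GV, without overlap between groups. The 5 SLC39A members summed to 232 and 255 TPM in IVM MII, 264 and 249 TPM in IVO MII, and 136 and 108 TPM in GV. The 5 SLC30A members summed to 67.9 and 53.3 TPM in IVM MII, 59.1 and 56.3 TPM in IVO MII, and 34.4 and 28.4 TPM in GV. For both sums all 4 MII libraries were above both GV libraries, in TPM and in CPM. The size of the gap depended on the scale and was relatively smaller in CPM. There the SLC39A means were 556, 688 and 376 CPM in IVM MII, IVO MII and GV, and the SLC30A means 109, 125 and 69.8 CPM. The summed TPM of the SLC39A members exceeded that of the SLC30A members by 3.41 and 4.79 times in IVM MII, 4.46 and 4.42 times in IVO MII, and 3.95 and 3.81 times in GV, and these ranges overlapped between IVM MII and both other groups. These sums, shares and ratios were not tested.

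Replicates of the members were about as close as those of other genes. The median absolute log2 ratio between the replicates was 0.19 over the members in IVM MII, 0.41 in IVO MII and 0.22 in GV, beside 0.32, 0.35 and 0.29 over all tested genes. The widest pairs were SLC39A1 in IVM MII (1.03), SLC39A7 in IVO MII (2.04) and SLC39A10 in GV (0.78).

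The likeness of 2 genes over the 6 libraries was described by the Euclidean distance between their centred log2 CPM values, with no test. SLC39A10 and SLC30A7 were each other's nearest member, at a distance of 0.68. SLC39A6 and SLC30A1 were each other's nearest at 0.76, although their fold changes against GV had opposite signs and neither was called. Being the nearest of 9 does not make a pair close, and genes outside the set lay nearer. SLC30A5 was nearest to SLC30A9 (1.06), not to its partner SLC30A6, whose nearest member was SLC39A6 (0.91). Among the 6020 other tested genes with a symbol and a mean of at least 10 CPM, those nearest to SLC39A6 were SPC25 (0.19), IDI1 (0.21) and ARL6 (0.23). Those nearest to SLC39A10 were KIDINS220 (0.21), ING3 (0.31) and ATM (0.31).

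The rest of the family held 14 genes, all in the table, of which 11 were tested. Between IVM MII and IVO MII 2 were higher and 2 lower in IVM MII, beside 14.3% and 10.3% of all genes. In IVM MII against GV 2 rose and 1 fell, beside 25.6% and 24.7% of all genes. In IVO MII against GV 2 rose and 3 fell, beside 28.1% and 30.5% of all genes. The median log2 fold changes of these 11 family genes were -0.30, 0.021 and -0.26. SLC39A4, the importer known for zinc uptake in the gut, rose in both MII groups, with 8.82 and 9.71 CPM in IVM MII, 5.99 and 5.67 CPM in IVO MII, and 1.57 and 3.08 CPM in GV. Its log2 fold change was 1.99 ± 0.35 in IVM MII and 1.33 ± 0.35 in IVO MII against GV, and the IVO MII call ended without GV replicate 1 (0.93). SLC30A4, an exporter known from endosomes and milk secretion, also rose in both, with 16.3 and 17.3 CPM in IVM MII, 28.6 and 25.9 CPM in IVO MII, and 7.56 and 7.37 CPM in GV (log2 fold changes 1.17 ± 0.24 and 1.87 ± 0.24 against GV). It was lower in IVM MII than in IVO MII at -0.70 ± 0.23 with an adjusted p of 0.0448, a call that 4 of 14 alternatives kept and that ended without any single library (-0.76 to -0.62).

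SLC39A3, an importer of the plasma membrane, was the family gene that fell in both MII groups, with 15 and 5 counts in IVM MII, 31 and 26 counts in IVO MII, and 85 counts in each GV library. Against GV its log2 fold change was -3.51 ± 0.52 for IVM MII and -1.47 ± 0.46 for IVO MII. The IVO MII call ended with the gene length offset (-0.80, adjusted p = 0.155 in a range of 0.00870 to 0.155) and without GV replicate 1 (-1.46) or 2 (-1.47) or IVO MII replicate 2 (-1.25). Between IVM MII and IVO MII it was at -2.04 ± 0.53 (adjusted p = 0.0162), a call that ended when replicate 2 of IVM MII (-1.56) or replicate 1 of IVO MII (-1.80) was left out. SLC39A9, a transporter of the Golgi and the cell surface, had 8.98 and 8.61 CPM in IVM MII, 2.36 and 4.35 CPM in IVO MII, and 7.76 and 9.57 CPM in GV. It was higher in IVM MII than in IVO MII at 1.39 ± 0.33 (adjusted p = 0.0106), a call that ended without IVO MII replicate 1 (1.02), and it fell in IVO MII against GV (-1.36 ± 0.33). Its exons share 80 bases with ERH on the opposite strand, and the counting used no strand. SLC30A3, which fills synaptic vesicles with zinc in the brain, had 5.25 and 4.01 CPM in IVM MII, 1.74 and 2.04 CPM in IVO MII, and 6.33 and 7.81 CPM in GV. It was higher in IVM MII than in IVO MII at 1.29 ± 0.33 (adjusted p = 0.0142), a call that ended when replicate 1 of IVM MII (1.11) or of IVO MII (1.19) was left out, and it fell in IVO MII against GV (-1.90 ± 0.33). SLC39A9 and SLC30A3 thus stood, like SLC30A5, lowest in IVO MII. SLC39A5, SLC39A8 and SLC30A10 were not tested, with at most 4 counts in a library; SLC30A10 had 0 counts in all 6, which allows a level of up to 0.0694 to 0.116 CPM by library.

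**Figure D5:**
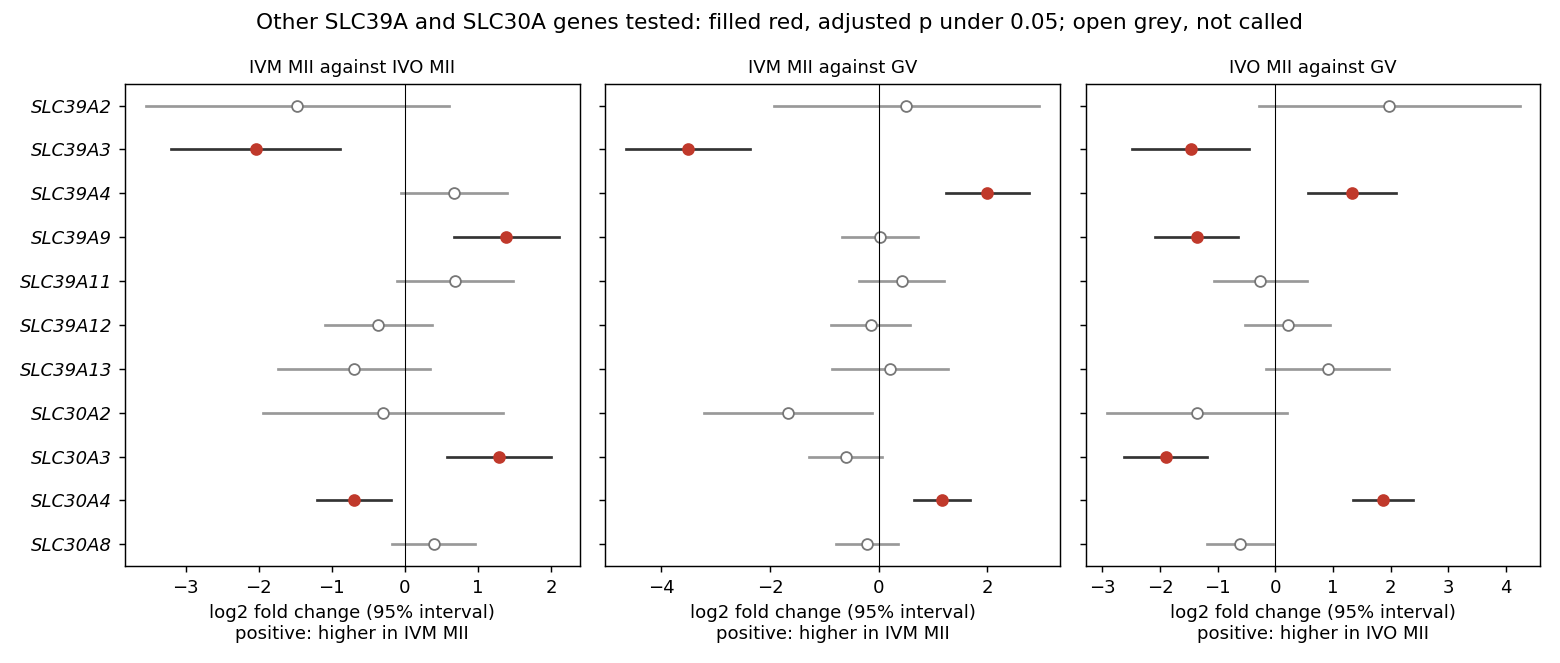
Log2 fold changes of the 11 tested SLC39A and SLC30A genes outside the set, with 95% intervals before adjustment; filled red points passed the edgeR test at an adjusted p under 0.05 and open grey points did not. SLC39A4 and SLC30A4 are filled above 0 in both comparisons with GV, and SLC39A3 is filled below 0 in all 3 comparisons.

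Of 24 genes that buffer, sense or regulate zinc, 11 were found in the table, 1 of them (ZNG1A) by its gene number, and 10 were tested; the rest were not analysed here. In IVM MII against IVO MII 1 was higher, in IVM MII against GV 2 rose, and in IVO MII against GV 4 rose. The edgeR test called 0 of the 10 lower in any comparison. At an unadjusted p under 0.05 by edgeR 0 were lower, and the share of all genes at that threshold was not worked out. Of all genes tested, 14.3% were called higher and 10.3% lower in IVM MII against IVO MII. The shares were 25.6% and 24.7% in IVM MII against GV, and 28.1% and 30.5% in IVO MII against GV. With 10 genes, the lack of lower calls was not tested against these shares. MTF1, the zinc-sensing transcription factor that drives SLC30A1 and metallothionein genes, rose in both MII groups, with 127 and 95.7 CPM in IVM MII, 145 and 117 CPM in IVO MII, and 76.5 and 55.4 CPM in GV. Its log2 fold change was 0.75 ± 0.25 in IVM MII and 0.99 ± 0.25 in IVO MII against GV. The IVM MII call ended with the gene length offset (0.49), with the strict filter (0.48) and without GV replicate 2 (0.54) or IVM MII replicate 1 (0.57), and the IVO MII call without GV replicate 2 (0.78). Its target SLC30A1 was not called in either comparison. CSNK2A2, a catalytic subunit of casein kinase 2, the kinase that activates the SLC39A7 protein, rose to 82.1 CPM in IVM MII and 79.6 CPM in IVO MII, against 29.1 CPM in GV. The regulatory subunit CSNK2B was higher in IVM MII than in IVO MII (205 against 111 CPM, log2 fold change 0.89 ± 0.23), a call that ended when replicate 2 of IVM MII (0.64) or either library of IVO MII (0.91 and 0.89) was left out, and with the gene length offset (0.63). ERP44, a zinc-dependent chaperone of the early secretory pathway, and MCOLN1, a lysosomal cation channel, rose in IVO MII against GV (0.63 ± 0.25 and 1.53 ± 0.49), calls that each ended without 3 of the 6 libraries in turn. Those libraries were GV replicate 1 (0.51), GV replicate 2 (0.76) and IVO MII replicate 2 (0.49) for ERP44, and GV replicate 1 (1.33), IVO MII replicate 1 (1.87) and IVO MII replicate 2 (1.13) for MCOLN1. The strict filter ended both calls (0.29 for ERP44 and 1.20 for MCOLN1), and testing without a low-count filter ended that of MCOLN1 (1.54).

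Of 21 carriers of other metals, 20 were tested. In IVM MII against IVO MII 3 were higher and 1 lower, beside 14.3% and 10.3% of all genes. In IVM MII against GV 9 rose and 5 fell, beside 25.6% and 24.7% of all genes. In IVO MII against GV 8 rose and 7 fell, beside 28.1% and 30.5% of all genes. The median log2 fold changes of the 20 carriers were 0.42, 0.67 and 0.54. The iron and copper importers TFRC, SLC11A2 and SLC31A1 rose in both MII groups (TFRC by 1.96 in IVM MII and 1.99 in IVO MII on the log2 scale), as did ATP7A, MAGT1, SLC41A3 and TRPM7. The copper chaperone ATOX1, CNNM2 and CNNM3 fell in both. ATP7B and SLC25A37 rose and SLC25A28 fell in IVM MII against GV, without a call in IVO MII, and none of these 3 was called between the MII groups. SLC31A2, SLC41A1, SLC41A2 and TMEM165 fell in IVO MII against GV, and TMEM165 was not called between the MII groups. Of these calls in IVM MII against GV, that of TRPM7 held under 4 of 13 alternatives (log2 fold changes of 0.57 to 1.14), ATP7B under 4 of 13 (0.56 to 1.26), SLC25A28 under 7 of 13 (-2.50 to -1.26), SLC25A37 under 10 of 13 (1.21 to 2.27), CNNM3 under 10 of 13 (-2.27 to -1.02) and MAGT1 under 13 of 14 (0.76 without GV replicate 2). Leaving out any GV or IVM MII library ended the calls of TRPM7 (0.76 to 1.00) and ATP7B (0.69 to 1.26). The call of SLC25A28 ended without GV replicate 1 (-2.10) or 2 (-1.29) or IVM MII replicate 2 (-1.26), that of SLC25A37 without GV replicate 1 (1.21) or IVM MII replicate 1 (1.25), and that of CNNM3 without GV replicate 2 (-1.26) or IVM MII replicate 2 (-1.02). The SLC41A3 call in IVO MII against GV held under 9 of 14 alternatives; it ended without GV replicate 1 (0.50), IVM MII replicate 2 (0.89) or IVO MII replicate 2 (0.58). CNNM1 fell in IVM MII and rose in IVO MII. Between IVM MII and IVO MII, SLC31A2 (2.32), the magnesium exporter SLC41A1 (2.65) and SLC41A2 (0.76, called in 9 of 14 alternatives) were higher and CNNM1 (-3.28) was lower in IVM MII.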

How the data were processed

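The table the authors deposited holds raw counts per gene. Per the file headers, featureCounts 2.0.1 assigned read pairs to the exons of the macFas5 RefSeq genes and used no strand information. The submitters' processing notes also name fastp, FastQC, Bowtie2 and SAMtools, with no version. Since Bowtie2 aligns without gaps for introns, pairs that cross exon junctions can be lost. Per the labels, an oligo-dT primer started the cDNA, which went through PCR before sequencing as pairs of 100 bases; no molecular identifiers are named, so floors (3 counts per library) cover counting error only.

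Tests used edgeR 4.0.16 (R 4.3.3). TMM factors were 0.903 to 1.22, filterByExpr kept 15815 genes, and robust quasi-likelihood fits took in all 6 libraries; BCV was 0.232, residual df 3 and median prior df 8.81. Standard errors came from the F statistic. TPM was computed from the counts and the table's exon lengths. ZNG1A was matched by gene number to RefSeq names. The alternatives were RLE factors, library totals, a length offset, no filter, a strict filter (10 CPM in at least 2 libraries), fits to only the libraries compared, a replicate block, DESeq2 1.42.0 and leaving out each library; a group left with a lone library is assumed to vary like the others. The procedure was tested on simulated data. Every member was named, and genes of other lists where they passed a test. The members and lists were chosen with earlier results of these data known. Figures used matplotlib 3.10.9.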

Additional observations from a re-analysis of the deposited data

Results flagged for a closer look

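The change from GV differed between the routes of maturation for several genes, by the edgeR test of IVM MII against IVO MII itself. Among the zinc transporters this was SLC30A5, at 0.74 in IVM MII and -0.43 in IVO MII on the log2 scale, a difference of 1.16 (adjusted p = 0.00775). In the rest of the family the differences were -2.04 for SLC39A3, 1.39 for SLC39A9, 1.29 for SLC30A3 and -0.70 for SLC30A4. Among genes of zinc regulation and of other metals they were 0.89 for CSNK2B, 2.32 for the copper transporter SLC31A2, 2.65 for SLC41A1, 0.76 for SLC41A2 and -3.28 for CNNM1, whose values against GV had opposite signs (-1.64 in IVM MII and 1.64 in IVO MII). Some of these calls did not hold under every alternative. That of SLC30A4 held under 4 of 14, SLC41A2 under 9 of 14 and CSNK2B under 10 of 14. Those of SLC39A3 and SLC30A3 held under 11 of 13 each, and that of SLC39A9 under 12 of 13. Groups of 2 libraries are too small to test single libraries as outliers.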

How the results depend on the processing

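No called value of a named gene changed sign under any alternative; over 1124 values of named genes, 998 kept direction and side of the threshold, 87 lost a call, 13 gained a call and 26 values of uncalled members changed sign. Those 26 were, in IVM MII against IVO MII, SLC39A6 (-0.017 with RLE factors, -0.013 with DESeq2), SLC39A14 (-0.025 and -0.021) and SLC39A7 (0.18 with library totals, 0.15 with the replicate block); in IVM MII against GV, SLC30A6 (0.13 with library totals, 0.023 with the length offset) and SLC39A6 (-0.0024 with the strict filter); and in IVO MII against GV, SLC30A1 (0.040 and 0.42 with library totals and the length offset) and SLC39A6 (-0.11 with the strict filter). Leaving out each library in turn gave, in IVM MII against IVO MII, ranges of -0.067 to 1.20 for SLC39A1, -0.14 to 0.26 for SLC39A14, -0.18 to 0.28 for SLC39A6 and -0.78 to 1.39 for SLC39A7. The ranges were -0.56 to 0.020 for SLC30A1 and -0.42 to 0.13 for SLC30A6 in IVM MII against GV, and -0.29 to 0.29 for SLC30A1, -0.52 to 1.66 for SLC39A7, -0.073 to 0.71 for SLC30A6 and -0.27 to 0.84 for SLC39A1 in IVO MII against GV.

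Members called higher in IVM MII against GV numbered 2 to 6 over the alternatives, 2 with the strict filter (7 members tested) and 6 with library totals; in IVO MII against GV the strict filter called 1 member lower. Genes called over all tested moved with the strict filter, which tested 8048 genes, to 1051 lower in IVM MII against IVO MII, 2268 higher and 2352 lower in IVM MII against GV, and 2727 higher and 2859 lower in IVO MII against GV. Left-out libraries gave 1327 to 2094 higher and 753 to 1496 lower genes in IVM MII against IVO MII, and 2580 to 4452 higher in IVM MII against GV. Library totals gave 2803 higher and 894 lower genes in IVM MII against IVO MII (75.8% higher), with a median log2 fold change of 0.24, and 5272 and 3004 in IVM MII against GV (63.7% higher); the causes were not tested.

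The summed level of the SLC39A members was 556, 688 and 376 CPM in IVM MII, IVO MII and GV with CPM in place of TPM, and 100.3, 130.3 and 38.3 TPM without SLC39A6. That of the SLC30A members was 109, 125 and 69.8 CPM. Leaving out the highest member of each group gave 42.3 TPM in IVM MII (without SLC30A9), 36.7 TPM in IVO MII (without SLC30A7) and 20.3 TPM in GV (without SLC30A1). Those last sums cover different genes, so they cannot be compared between groups.

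The correlations of same-numbered libraries' deviations were -0.11, -0.14 and 0.18, so the replicate numbers were not taken as pairs. The replicate block called SLC39A10 as well in IVM MII against GV (0.87, adjusted p = 0.0456) and changed no other member's call. Depth limits SLC39A7, with as few as 21 counts in a library.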
